A study of Drosophila melanogaster with 3 samples.

Results

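The core genes of planar cell polarity are frizzled (fz), Van Gogh (Vang), starry night (stan), prickle (pk) and diego (dgo). They were taken by name, and their 5 gene bodies with 2 kb on either side were searched for binding of the transcription factor Scalloped, out of 13945 protein-coding genes. The study mapped green fluorescent protein fused to the C terminus of Scalloped (sd) by chromatin immunoprecipitation with an anti-GFP antibody and sequencing, in whole Drosophila melanogaster embryos of pooled sexes aged 4 to 20 h. It had 1 group of 3 biological replicates of a transgenic line that stably carries this fusion, so no condition was compared, and cell types within the embryo cannot be told apart. Peaks on dm6 came as a list for each replicate, a list for all replicates together, and a shorter list filtered by irreproducible discovery rate (IDR), a measure of how alike replicates rank a peak. The IDR list held 10553 peaks, the same as the strongest 10553 of the 30000 pooled peaks, and 20 of its summits lay in the core gene regions. Each peak carries a signal value of the authors' caller, which was used only within a list: as a rank, with 1 the strongest, or as a level, meaning the signal value divided by the median of the same list. The sequencing depth behind these values is unknown.

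Planar cell polarity is the alignment of cells within the plane of an epithelium, seen in flies in the common direction of wing hairs and in the orientation of eye facets. Its core proteins sort to opposite sides of each cell: Frizzled, a membrane receptor, with Dishevelled and Diego on one side, and Van Gogh, a membrane protein, with Prickle on the other. Starry night (also called Flamingo), an atypical cadherin, links both complexes between neighbouring cells. Scalloped is the fly TEA-domain factor, which binds DNA with partners such as Yorkie, the coactivator of Hippo growth control, and the usual core of its binding site is CATTCC.

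The fz gene, on arm 3L, held most of the summits. Of its 11 IDR summits, 4 had CATTCC within 100 bp, beside 19.8% of all IDR summits. The windows of 201 bases around these 4 summits are shown with the site in capitals (as GGAATG where it lies on the other strand), to let the place of the site within each peak be seen. All 4 lie in fz introns. They are read 5' to 3' on the plus strand of dm6, which is also the strand of fz, with the summit at the middle base.

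fz summit 4, chr3L:14303912-14304112: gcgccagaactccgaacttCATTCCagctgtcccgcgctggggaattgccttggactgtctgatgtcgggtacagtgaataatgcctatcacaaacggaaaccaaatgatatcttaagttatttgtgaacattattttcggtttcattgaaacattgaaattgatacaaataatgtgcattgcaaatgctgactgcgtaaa
fz summit 6, chr3L:14318152-14318352: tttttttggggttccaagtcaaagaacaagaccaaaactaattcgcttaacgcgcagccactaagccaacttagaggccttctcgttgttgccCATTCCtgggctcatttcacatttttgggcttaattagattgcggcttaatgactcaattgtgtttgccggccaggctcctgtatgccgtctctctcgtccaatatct
fz summit 7, chr3L:14321832-14322032: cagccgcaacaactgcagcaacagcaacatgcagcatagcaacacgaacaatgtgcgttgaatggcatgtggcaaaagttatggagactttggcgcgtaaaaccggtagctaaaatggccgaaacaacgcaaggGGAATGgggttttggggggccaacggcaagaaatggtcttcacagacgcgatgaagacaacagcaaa
fz summit 9, chr3L:14336843-14337043: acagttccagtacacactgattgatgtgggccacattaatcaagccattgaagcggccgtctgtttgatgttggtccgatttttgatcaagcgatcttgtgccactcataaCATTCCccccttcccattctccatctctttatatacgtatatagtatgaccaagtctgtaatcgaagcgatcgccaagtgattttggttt

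The site began 81 bases upstream of the summit in summit 4, the strongest of fz, 7 bases upstream in summit 6, 34 bases downstream in summit 7 and 11 bases downstream in summit 9. The other 7 fz summits had no CATTCC even within 250 bp. The next strongest, summit 10, is shown for contrast, and its window holds none.

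fz summit 10, chr3L:14337787-14337987: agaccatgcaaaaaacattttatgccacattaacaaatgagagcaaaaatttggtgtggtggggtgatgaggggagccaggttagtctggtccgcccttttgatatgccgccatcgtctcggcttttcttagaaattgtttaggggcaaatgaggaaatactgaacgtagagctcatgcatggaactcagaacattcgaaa

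Of the 5 core genes, 3 held IDR summits: fz with 11, pk with 7 and stan with 2. Neither Vang nor dgo held any. Among all protein-coding genes, 44% had an IDR summit in the gene with 2 kb on either side. Long genes have more room for summits, so genes were also divided into 10 equal groups by region length. The regions of fz (98.3 kb), pk (76.7 kb) and stan (51.8 kb) fell in the longest group, where 73.7% of genes had a summit. Those of Vang (7.56 kb) and dgo (7.85 kb) fell in the seventh group, from 6839 to 8030 bp, where 46.7% had one. The members with and without a summit were thus also the long and the short ones, and with 5 genes no test was made.

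Per length, the regions with summits were less apart than their counts. The density was 1.12 IDR summits per 10 kb in fz, 0.913 in pk and 0.386 in stan, beside 0.788 over the chromosome arms. Of all protein-coding genes, 0.947% had at least as many IDR summits as fz, 2.52% at least as many as pk and 24.1% at least as many as stan. Within the longest group the shares were 9.33%, 21.7% and 60.0%, and the group median was 3 summits. By density, 36.9% of that group reached fz, 43.6% reached pk and 63.5% reached stan. The core genes with summits thus lay inside the range of other long genes.

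**Figure D1:**
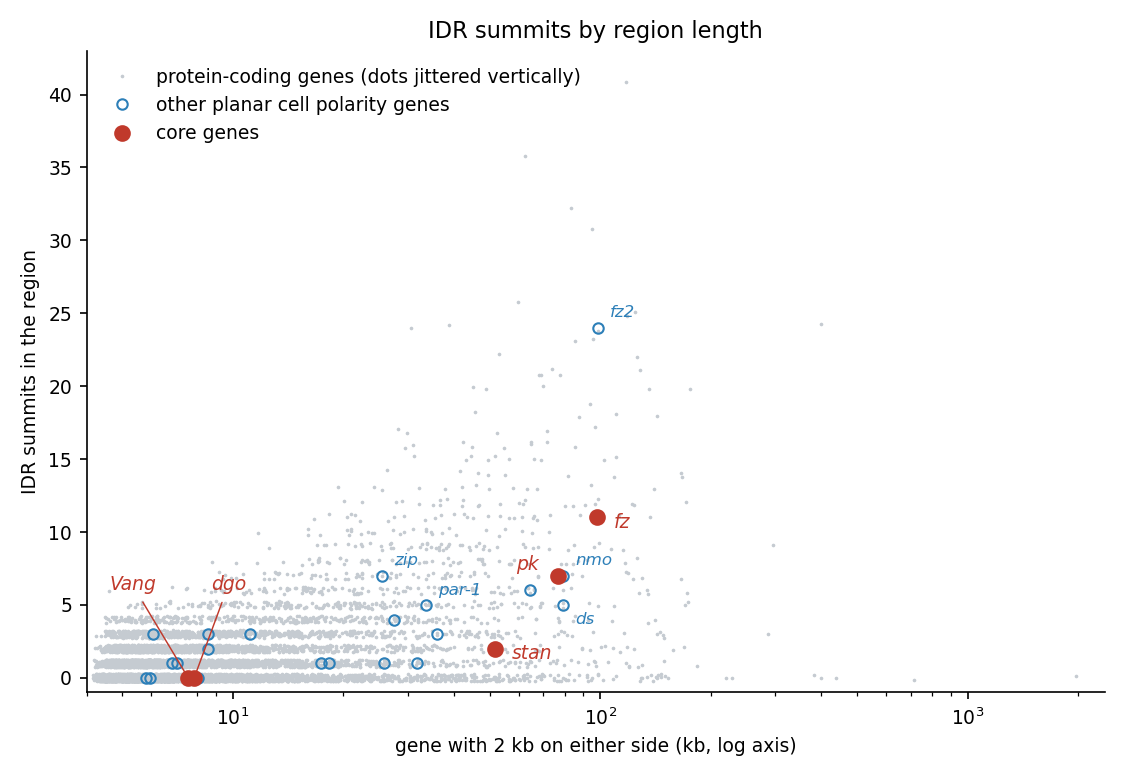
Number of IDR summits (vertical axis) against the length of the gene with 2 kb on either side in kb (horizontal log axis). Red points are the 5 core genes, blue circles 22 other planar cell polarity genes, and grey dots stand for protein-coding genes, 1 dot per length and count. Vang and dgo, with regions of 7.56 and 7.85 kb, sit at 0, while fz, with 11 summits, lies at nearly the length of fz2, with 24.

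The replicates gave nearly the same counts. Among the strongest 10553 peaks of each replicate, fz held 11, 10 and 11 summits in replicates 1, 2 and 3 (10.7 ± 0.577, SD, n = 3). In the same lists pk held 7, 6 and 8 (7 ± 1.0, SD, n = 3) and stan 3, 2 and 3 (2.67 ± 0.577, SD, n = 3). For dgo the count was 0 in every list, also when all 30000 peaks of each were searched. All 30000 peaks of each replicate were also searched for matches to the IDR summits. Of the 20 IDR summits in core genes, 19 were matched within 100 bp in each of the 3 replicates, beside 91.4% of all IDR summits. The exception was fz summit 5, for which the nearest summit of replicate 1 lay 101 bp away, at rank 8217. With only the strongest 10553 peaks of each replicate searched, 12 of the 20 were matched in all 3, beside 67.4% of all IDR summits.

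The order of the strongest summits was stan, then pk, then fz, and it was the same in each replicate. The strongest stan summit ranked 818 in the IDR list and 780, 1003 and 847 in replicates 1, 2 and 3. Its level was 7.69, 6.65 and 7.26 times the list median (7.20 ± 0.526, SD, n = 3). The strongest pk summit ranked 1331 in the IDR list, with levels of 5.98, 5.10 and 5.64 (5.57 ± 0.446, SD, n = 3). The strongest fz summit, number 4, ranked 2964, with levels of 3.94, 2.40 and 3.99 (3.44 ± 0.903, SD, n = 3). The ranges over the replicates did not overlap between any of the 3 genes. For pk this rests on a summit 5 bp from the start of Spn43Ab, a gene nested in pk. The next strongest pk summit, at 7164905, had levels of 3.45, 3.20 and 3.20. The strongest one nearest to a start of pk itself, at 7202273, had 3.24, 2.53 and 3.34. Both lie within the range of the strongest fz summit. For fz the low value came from replicate 2, in which another summit, upstream of the gene, was the strongest, at a level of 3.24 and rank 3764.

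**Figure D2:**
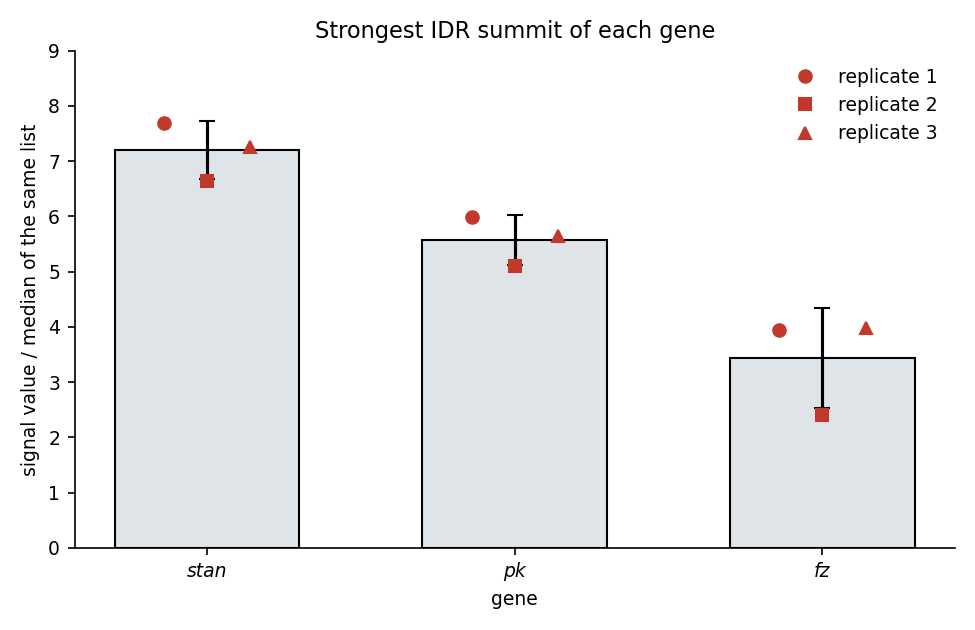
Level of the strongest IDR summit of stan, pk and fz, as the signal value divided by the median of the same list. Bars are the mean and error bars the SD over 3 replicates, which are drawn as points. All stan points (6.65 to 7.69) lie above all pk points (5.10 to 5.98), and these above all fz points (2.40 to 3.99). The pk summit drawn is the one at the start of Spn43Ab, a gene nested in pk.

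In the receptor gene fz (FBgn0001085, 3L, 14274343 to 14368639, plus strand), summits were many and spread over the introns, most of them below the median signal of the IDR list. Of its 11 IDR summits, 10 lay in the gene body, all in introns, and 1 lay upstream. Their IDR ranks ran from 2964 to 10522 with a median of 6905, and 2 of the 11 were above the median signal of the list. The 7 pk summits had a similar median rank of 6318, with 3 above the median signal. In fz, the gaps between neighbouring IDR summits had a median of 7790 bp and reached 28416 bp. None of the fz IDR summits lay inside either transposable element annotated in the fz region.

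The strongest fz summit, at 14304012, lay 29669 bp downstream of the single annotated transcription start site (TSS), in the first intron of 29170 bp. It ranked 2695, 5767 and 2607 in replicates 1, 2 and 3. The summit at 14337887 (IDR rank 5020), in the fourth intron, ranked 6303, 3978 and 5652. The summit at 14272622 (IDR rank 5490) lay 1721 bp upstream of the TSS, the nearest IDR summit to it, and ranked 7885, 3764 and 6433. Replicate 2 thus placed these last summits highest and the strongest one lowest of the 3 replicates.

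The summit at 14327477 (IDR rank 5644) lay in the fourth intron, 1226 bp upstream of the TSS of the noncoding gene lncRNA:CR45025, which is nested in fz, and ranked 6941, 7159 and 4919. Summit 5, at 14309103 (IDR rank 6898), lay in the second intron and ranked 6450 in replicate 2 and 6448 in replicate 3. The remaining 6 summits ranked from 6905 to 10522, 2 of them in the first intron and 4 in the fourth. The faintest, at 14282372, ranked 7894, 23095 and 10339, the widest spread of any core gene summit. For 8 of the 11 summits the nearest TSS was not that of fz but of lncRNA:CR45025, CG13482 or CG13481, so the gene that a summit acts on is not given by its place.

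Below the IDR threshold fz held many more summits. The pooled list had 68 in the region, or 6.92 per 10 kb beside 2.24 over the arms, and replicates 1, 2 and 3 had 59, 53 and 63 (58.3 ± 5.03, SD, n = 3). Among all protein-coding genes, 54.5% had a pooled summit in their region, 0.0717% had at least as many as fz, and in the longest group the share was 0.717%. By density 9.18% of the longest group reached fz. Of its pooled summits 16.2% were also in the IDR list, beside 35.2% of all pooled summits. The 57 others ranked from 10614 to 29993, and 21 of them (36.8%) were found in all 3 replicates, beside 41.7% of all pooled summits below the IDR threshold. At the fz TSS itself, 3 pooled summits lay within 500 bp, the best at rank 15327, below the IDR threshold.

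**Figure D3:**
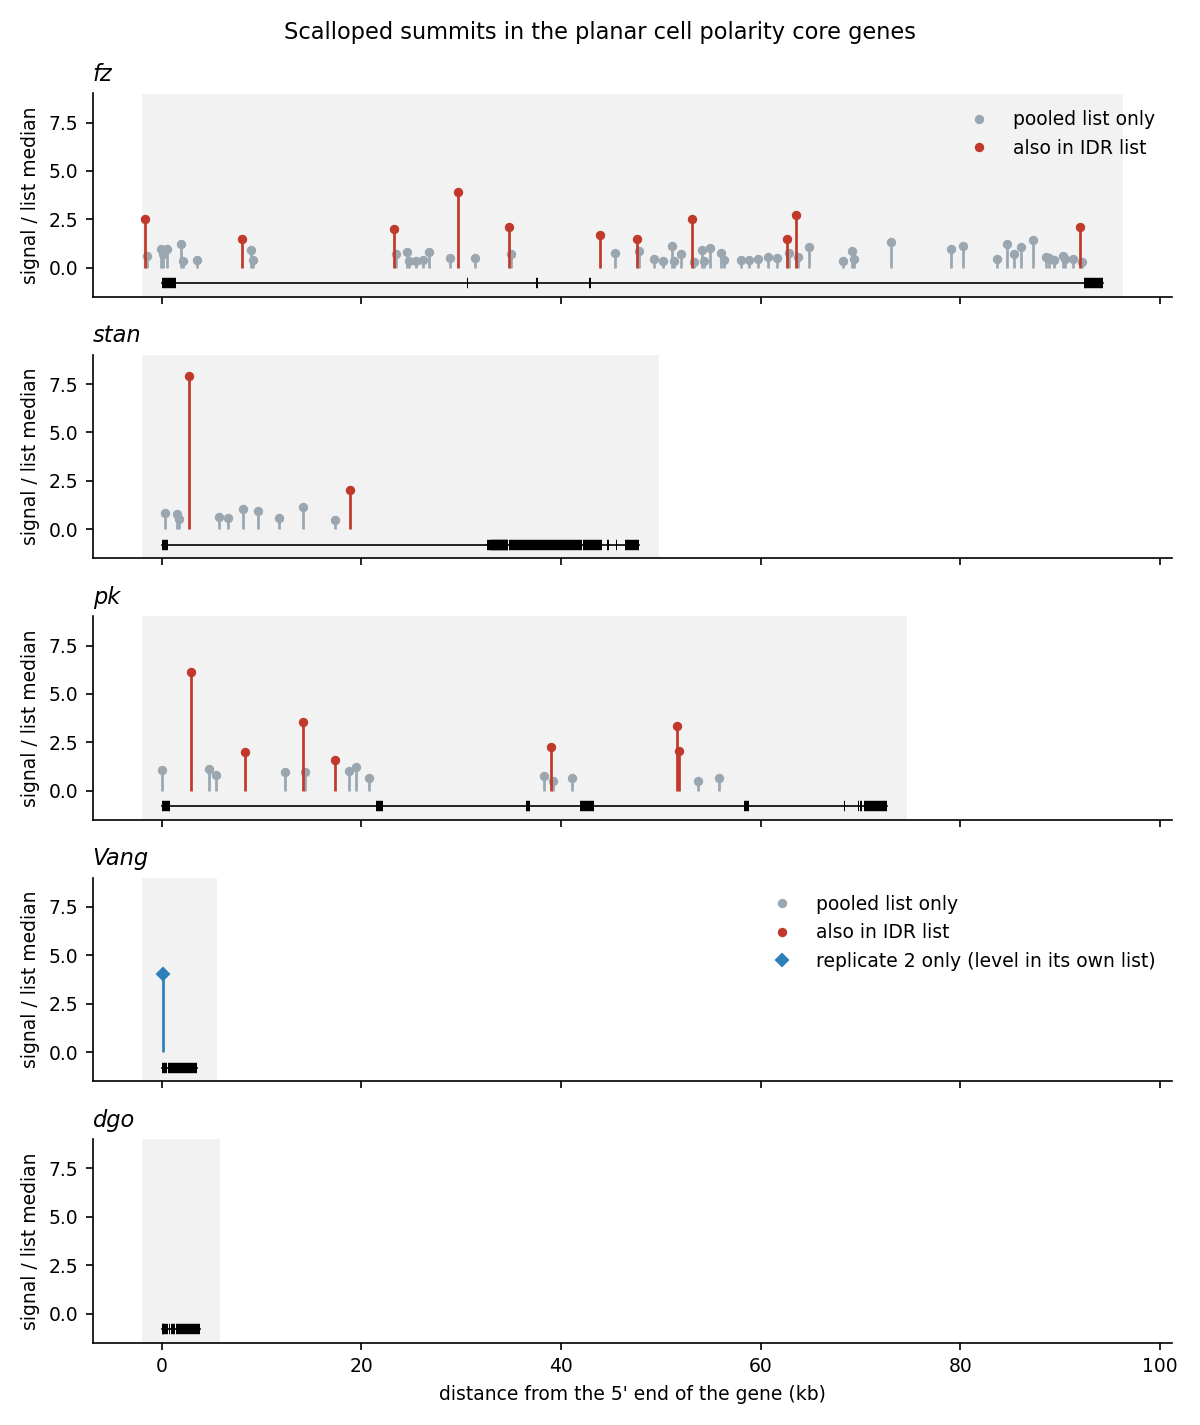
Pooled-list summits along each core gene, with the level (signal value over the list median) on the vertical axis and the distance from the 5' end of the gene in kb on the horizontal axis. Red summits are also in the IDR list, grey ones are not, the blue diamond is the summit found in replicate 2 alone, thick black bars are exons and the shade covers the gene with 2 kb on either side. Mostly grey summits fill the 68 positions of fz, the tallest summit stands near the 5' end of stan, and dgo is empty.

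In stan (FBgn0024836, 2R, 10673345 to 10721138, plus strand), which encodes the cadherin that bridges cells, all IDR and pooled summits lay in the 5' part of the gene. Both IDR summits lay in introns of the long transcripts. The strongest summit of all core genes, at 10676103 (interval 10675793 to 10676508), lay 2758 bp downstream of the upstream TSS, in the first intron of 17395 bp. It had no CATTCC within 250 bp and 1 AATTCC within 100 bp. The second summit, at 10692160, lay in the second intron and ranked 7174 in the IDR list and 7672, 9502 and 7424 in replicates 1, 2 and 3. It had CATTCC 28 bp downstream of the summit, in the longer form RCATTCCW, the only such site among the 20 core gene summits. All 12 pooled summits of the region lay between 0.284 and 18.8 kb from the 5' end. None lay in the part of the gene from the downstream TSS, at 32.6 kb, to the 3' end.

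At the stan promoter, each replicate placed a summit where the pooled list had a peak interval but no summit within 100 bp, and the IDR list had no peak. It lay 92, 99 and 75 bp downstream of the upstream TSS in replicates 1, 2 and 3, at ranks 6431, 11292 and 5559. Its levels were 2.15, 1.35 and 2.43, beside those of the second IDR summit (1.88, 1.59 and 1.96). The nearest pooled summit lay 192, 185 and 209 bp from these positions, at rank 16977. Over all summits that the 3 replicates shared, 1.16%, 1.38% and 1.29%, as seen from replicates 1, 2 and 3, had no pooled summit within 100 bp. The place in replicate 2 ranked below the top 10553, while those in replicates 1 and 3 were inside it.

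In pk (FBgn0003090, 2R, 7150703 to 7223378, plus strand), which encodes a cytoplasmic LIM-domain protein that acts with Van Gogh, the strongest summit lay at the start of another gene. This summit, at 7153637 (interval 7153397 to 7153885), was 5 bp downstream of the TSS of Spn43Ab, a serpin gene nested in the first intron of pk on the opposite strand. It lay 2934 bp from the most upstream of the 3 pk TSSs. It ranked 1267, 1696 and 1390 in replicates 1, 2 and 3 and had CATTCC 10 bp upstream of the summit.

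The summits at 7159043 (IDR rank 7305) and 7164905 (rank 3438) also had a neighbour's TSS as the nearest, that of the serpin gene nec, at 802 and 6664 bp. The first of them ranked 5991, 13632 and 7159 in the replicates, and the other 3377, 3830 and 3740. The latter had CATTCC 45 bp upstream. The replicates were thus close for 7164905 and apart for 7159043, where replicate 2 ranked it low.

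The other 4 pk summits were nearest to a pk TSS and lay in pk introns. The summit at 7168081 (IDR rank 9511) ranked 10752, 9058 and 10820, and that at 7189715 (rank 6318), 2482 bp downstream of the most downstream TSS, ranked 5884, 7938 and 6404. The last 2 shared an interval, 7202061 to 7202631, and were 204 bp apart. The stronger, at 7202273 (IDR rank 3780), ranked 3728, 5354 and 3490, and the weaker, at 7202477 (rank 7064), ranked 6140, 16927 and 9770. Both had CATTCC, 52 and 81 bp upstream of the summit. No IDR summit lay within 500 bp of any pk TSS, and the pooled list had 1 there, at rank 13826.

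**Figure D4:**
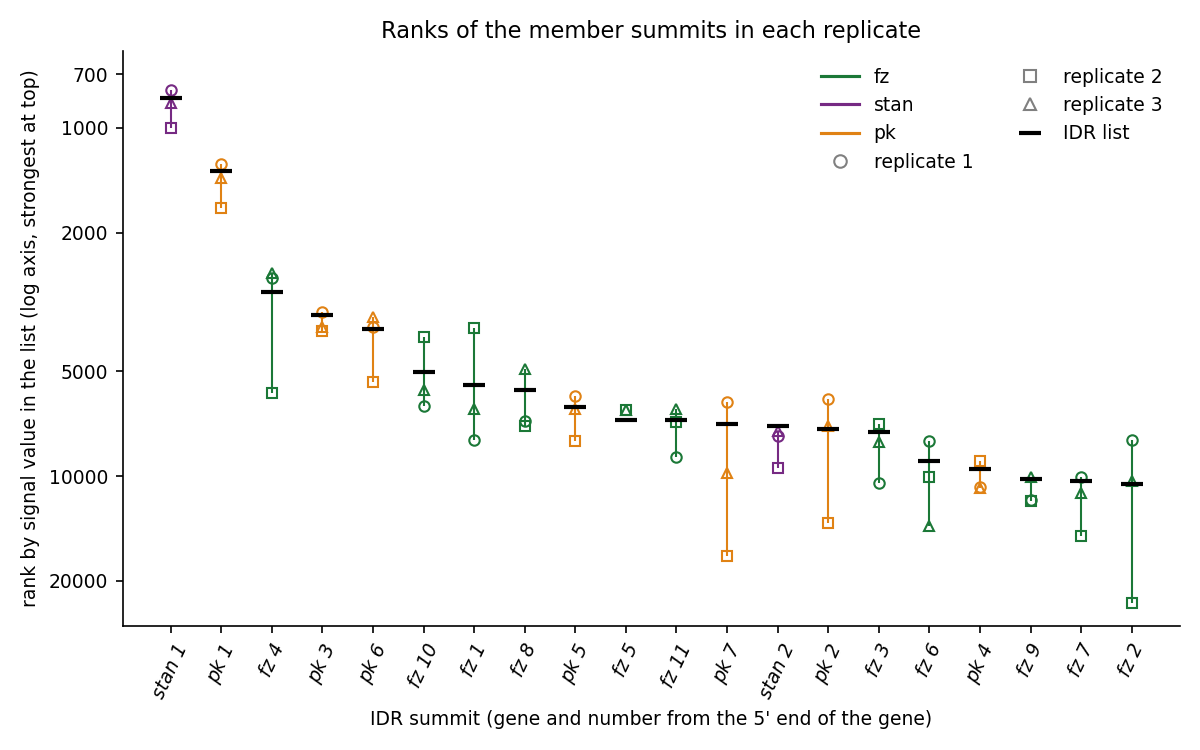
Rank of each of the 20 IDR summits in the core genes (vertical log axis, strongest at the top), ordered by IDR rank, with open symbols for the 3 replicates and a black dash for the IDR list. The strongest stan and pk summits keep close ranks (780 to 1003 and 1267 to 1696), while fz summit 2 runs from 7894 to 23095.

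In Vang (FBgn0015838, 2R, 9103238 to 9106796, plus strand), which encodes the membrane partner of Prickle, a summit was found in replicate 2 alone. It lay at 9103389 (interval 9103297 to 9103416), 151 bp downstream of the TSS, with rank 2616, a level of 4.04 and no CATTCC within 100 bp. No peak of replicates 1 or 3, or of the pooled or IDR list, overlapped this interval, and their nearest summits were 7893 to 8137 bp away. Replicate 2 had more such summits than the others: 895 of its top 10553 peaks (8.48%) had no summit of the other replicates within 100 bp, beside 255 in replicate 1 and 181 in replicate 3. At rank 2616 or better there were 124 in replicate 2, 19 in replicate 1 and 12 in replicate 3. The IDR summit nearest to the Vang gene body lay 7986 bp away, near the TSS of Uhg4.

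In dgo (FBgn0086898, 2R, 10816037 to 10819884, minus strand), which encodes a cytoplasmic ankyrin-repeat protein on the Frizzled side, no list had a summit. The nearest IDR summit to the gene body lay 7669 bp away at rank 1162, and the nearest TSS to it was that of wde.

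In the IDR list, none of the 5 core genes had a summit within 1000 bp of an own TSS, beside 30.5% of all protein-coding genes, a difference that 5 genes cannot establish. The full replicate lists go beyond rank 10553. In them, summits lay within 500 bp, not 1000 bp, of a start of fz, pk and stan in all 3 replicates. For Vang this held in replicate 2 alone, at rank 2616. The best ranks in replicates 1, 2 and 3 were 13172, 16575 and 14819 for fz, and 16013, 26793 and 9415 for pk. For stan they were 6431, 11292 and 5559. These counts have no share of all protein-coding genes beside them, so they do not show that the core genes stand out. Of the 20 IDR summits in core genes, 18 were in introns by annotation, 1 was intergenic and 1, at Spn43Ab, was within 500 bp of a TSS. Over all IDR summits, 45.5% were in introns and 38.2% within 500 bp of a TSS. Among IDR summits in the regions of the longest group of genes, to which fz, pk and stan belong, 66.7% were in introns. An own TSS was the nearest for 9 of the 20, beside 62.7% in that group.

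CATTCC within 100 bp was found at 9 of the 20 summits, 4 in fz, 4 in pk and 1 in stan. This is 45% (95% interval 23.1 to 68.5%, exact Clopper-Pearson, counting error only, with neighbouring summits taken as independent), beside 19.8% of all IDR summits and 8.67% of windows 1000 to 1200 bp to either side. The longer RCATTCCW was at 1 of the 20, beside 9.24% of all IDR summits. The permuted control CTACTC was at 2 of the 20, 1 in stan and 1 in pk. This is 10% (interval of the same kind 1.23 to 31.7%), beside 3.63% of all IDR summits. Both AATTCC and GAGAG, a sequence bound by GAGA factor, were at 6 of the 20, beside 23.5% and 29.3% of all IDR summits. No core gene summit (0 of the 20) had TATCGATA, the DNA replication-related element, found at 2.10% of all IDR summits. Matches were sought on both strands, RCATTCCW sites are also counted as CATTCC, and with 20 summits in 3 genes the difference from other summits was not tested.

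Most other genes of the pathway held IDR summits, many of them at their own start. Of 22 such genes, listed by role, 18 had an IDR summit in the gene with 2 kb on either side and 12 within 1000 bp of an own TSS. The backgrounds are the 44% and 30.5% given above, and many of these genes are long. The difference between the core genes and these genes was not tested.

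The remaining core protein, Dishevelled, is the cytoplasmic partner of Frizzled. Its gene dsh, which at 2.84 kb is shorter than Vang and dgo, had 1 IDR summit, 35 bp upstream of the TSS, with CATTCC. It ranked 2194 in the IDR list and 3698, 1094 and 2659 in replicates 1, 2 and 3, so all replicates had it, highest in replicate 2.

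The Fat and Dachsous group, which gives cells a tissue-wide direction, had summits in 4 of 5 genes. The cadherin gene ds held 5 summits, the strongest at rank 98 (82, 170 and 83 in replicates 1, 2 and 3), in an intron and with CATTCC. The nearest TSS to that summit was of lncRNA:CR44988, 8626 bp away. The gene app, for a palmitoyltransferase, held 6, the strongest at rank 279, and ft, for the Fat cadherin, held 4, the strongest at rank 1937. The myosin gene dachs held 1, at rank 10515, 74 bp from the TSS of a tRNA gene, and fj, for a kinase of the Golgi, held none.

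Effectors of hair formation and of the cytoskeleton had summits in 7 of 8 genes. Rho1, for a small GTPase, held 3, the strongest 127 bp upstream of the TSS at rank 184, and the myosin light chain gene sqh held 3, the strongest at rank 485 and closer to the TSS of dtn. The strongest summit of frtz, which held 2, was at rank 1312, and that of the myosin heavy chain gene zip, which held 7, at rank 1587 with no summit of replicate 1 within 100 bp. Weaker strongest summits were found in mwh, with 3 summits (rank 3923, at the TSS of meep), and in in, with 1 (rank 5121). The kinase gene Rok held 1 (rank 10429), nearest to the TSS of CG9782. None was found in fy.

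Regulators of the core proteins had summits in 4 of 5 genes. The strongest summit of the kinase gene nmo, which held 7, was at rank 44 (41, 57 and 44 in replicates 1, 2 and 3), in an intron and with CATTCC. The nearest TSS to that summit was of tRNA:Ala-AGC-2-1, 4165 bp away. The kinase genes par-1 and dco held 5 and 3, the strongest at ranks 2860 and 5285, and Galphao, for a G protein subunit, held 1, at rank 6012. ATP6AP2, for a subunit that assembles with the vacuolar proton pump, held none.

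Within the Frizzled receptor family, fz2 offered a comparison at nearly the same length. The region of fz2, 98.4 kb beside the 98.3 kb of fz, held 24 IDR and 74 pooled summits, beside 11 and 68 in fz. Its strongest summit ranked 321 (320, 351 and 328 in replicates 1, 2 and 3), lay 1456 bp downstream of a TSS and had CATTCC. The pooled counts of both genes were thus alike, and more of those of fz2 were in the IDR list. The other receptor genes have shorter regions. That of fz3 (18.3 kb) held 1 IDR summit, at rank 7325, and 10 pooled summits, and that of fz4 (8.05 kb) held no IDR summit and 6 pooled ones. Per 10 kb this was 5.47 pooled summits in fz3 and 7.45 in fz4, beside 6.92 in fz, 7.52 in fz2 and 2.24 over the arms.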

How the data were processed

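The authors deposited peak lists on dm6, 1 per replicate, 1 pooled and 1 IDR-thresholded, made from alignments set against 1 control alignment, per the deposited file listing. The deposited signal value and −log10 q value come from their peak caller. The caller, aligner and IDR threshold are not given in the sources used here, and fragments were sheared to 200 to 800 bp per the labels. The q values reach a ceiling and were not used for ranking. Summits were placed at the peak start plus the deposited offset and written 1-based. Gene models were those of Ensembl (release 115, BDGP6.54) and sequence from RefSeq Release 6, both with dm6 coordinates, for arms 2L, 2R, 3L, 3R, 4 and X. Regions were gene bodies with 2000 bp on either side. Summits of different lists were matched within 100 bp and motifs searched within 100 bp on both strands. Flank windows within 500 bp of another IDR summit were left out. The symbol d was updated to dachs.

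All values are descriptions, with no test. The 5 members and the list of 22 other genes were chosen with earlier results of these data known. All members, all their IDR summits (for fz the 5 strongest and a summary), neighbours at nearest TSSs and all 22 genes were named by rule, and fz summits were also named where they carry CATTCC. Alternatives changed the margin, the list, the matching distance, the motif window and the replicates used. Counting procedures were tested on simulated data. Python 3.11.15 was used with scipy 1.17.1, pandas 2.3.3, numpy 2.4.6 and matplotlib 3.10.9.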

Additional observations from a re-analysis of the deposited data

How the results depend on the processing

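Of 58 values under alternative settings, 52 stayed within 1.5 times the reported count or within 1 SD of the reported level. The levels among them could not fail, since leaving out 1 of 3 replicates always moves the mean by less than 1 SD. They therefore say nothing about stability. With only IDR peaks above the median signal value, the core genes held 6 summits, all 6 in all replicates and 4 with CATTCC. The pooled list in full gave 100 summits in place of 20. The count found in all replicates was 12 when summits had to match within 50 bp (69.8% of all IDR summits passed) and 12 when replicate peaks beyond rank 10553 were ignored (67.4%). The number of core genes with a summit was 3 under 10 of 11 alternatives and 4 in the top peaks of replicate 2, which add Vang. For the 22 other genes the count ran from 13 to 20. Leaving out a replicate, which for levels, IDR counts and CATTCC counts was added after seeing the data, changed no count by more than 1. For the counts, IDR summits were only matched to the other replicates, and the IDR list, made with all 3, was not rebuilt. These counts therefore cannot show whether the results depend on 1 replicate. The order of stan, pk and fz could not change, since their ranges over the replicates did not overlap. No paired analysis was possible because there is a single group. The depth is unknown, a missing peak does not show that Scalloped is absent, and control reads and expression were not analysed here.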

Other observations

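The stan region held a second place where all replicates had a summit and the pooled list had none within 100 bp. It lay 2966, 2958 and 2966 bp downstream of the upstream TSS in replicates 1, 2 and 3, also within a pooled interval, that of the strongest stan peak, at ranks 26811, 16162 and 17044. No other core gene region had such a place as seen from all 3 replicates. In fz, a summit of replicate 2 at 80143 bp from the TSS lay 103 bp from the nearest pooled summit, and the summits of replicates 1 and 3 there lay within 100 bp of it. Why the pooled summit at the stan promoter lies elsewhere in its interval was not tested.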
